A study of Mus musculus with 2 samples.

Results

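The genes that make heart muscle excitable were examined in the open chromatin of cardiac progenitor cells (CPCs). They are 46 genes chosen by name for ion channels, calcium stores and pumps, calcium sensors and gap junctions. The choice was made with earlier results of these data known. Every distinct peak whose listed gene symbol was 1 of them was taken as a member peak. This gave 95 of 26232 distinct peaks, with a summed width of 119 kb, and a gene without a peak was kept and counted as 0. The cells were day 5 CPCs, made, per the labels of both samples, by directed differentiation from E14 Tg(Nkx2–5-EmGFP) mouse embryonic stem cells, in which a green fluorescent protein reports on Nkx2-5, a homeobox factor of early heart cells. The labels give the strain as C57BL/6. The stem cells were kept in LIF with BMP4, aggregated, given Activin A, VEGF and BMP4, and then plated with VEGF, bFGF and FGF10. No treatment is named for the cells analysed here, the Isl1 knockdown that the series' design text names is not analysed here, and the labels name no sort for the reporter. The study's methods also describe a hanging drop differentiation with a sort for the reporter at day 5, and their account of the assay does not say which of these supplied its CPCs.

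Open chromatin was mapped by ATAC-Seq, which relies on a transposase, Tn5, that cuts and tags accessible DNA. The 2 samples came from independent differentiations and form 1 group, represented by 1 list of regions called in both. The list holds positions and the nearest transcription start site (TSS), with no score and no value for either sample, so that read depth is unknown, no difference could be tested and no replicate error can be given. A gene without a peak was not shown to be closed, since the list may be incomplete and a region called in 1 sample alone is not in it. The cell type was checked against 12 markers of cardiac progenitors, of which 11 (91.7%) had a peak and Hand2 had none, with the most peaks at Isl1 (8) and Tbx20 (6). Of all protein coding genes 62.5% had a peak, so that a peak at a marker says little by itself, and at a TSS 8 of the 12 (66.7%) had one, against 50.1%, with none at those of Gata4, Hand1, Hand2 and Smarcd3. A peak was thus present at most of these markers, and the purity of the cells cannot be read from it.

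In a beating heart cell, calcium that enters through the L-type channel opens the ryanodine receptor, which releases the store of the sarcoplasmic reticulum. The pump SERCA then refills that store under the brake of phospholamban, and the sodium calcium exchanger returns the rest to the outside. Sodium, pacemaker and potassium channels set the rhythm and length of the action potential, and gap junctions carry it from cell to cell.

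Analysis of the 46 genes revealed at least 1 peak at 40 of them (87%), compared with 62.5% of 21900 protein coding genes. A peak within 1 kb of a TSS was found at 34 (73.9%), against 50.1% of all genes. A peak farther than 10 kb from the TSS, here called distal, was present at 22 (47.8%), against 24% of all genes. A single peak was listed for 17 genes and exactly 2 for 6, and 17 (37%) had 3 or more, against 10.3% of all genes. The median was 1.5 peaks per gene and the mean 2.07, compared with 1 and 1.07 over all protein coding genes. The genes are long, with a median of 54 kb against 15.4 kb, and long genes offer more room for peaks. Lengths were taken from 22238 protein coding genes of GENCODE, another gene set than the 21900, of which 20371 could be matched to it by name. Peaks were found at 10 of 15 genes under 20 kb (54.3% of the matched genes of that class), at 14 of 14 genes of 20 to 100 kb (78%) and at 16 of 17 genes over 100 kb (87.3%). The mean number of peaks in these classes was 1.67, 2.07 and 2.41, against 0.81, 1.32 and 2.10 over the matched genes. The first of these means rests much on Calm2, which alone had 9 peaks, and the medians of the 46 genes were 1, 2 and 2. With the unmatched genes counted as well, the shares of the 3 classes were 44.3, 70.9 and 81.2%. Their means were then 0.66, 1.21 and 1.96 and their medians 0, 1 and 1. The part of gene length in the difference was not tested.

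**Figure D1:**
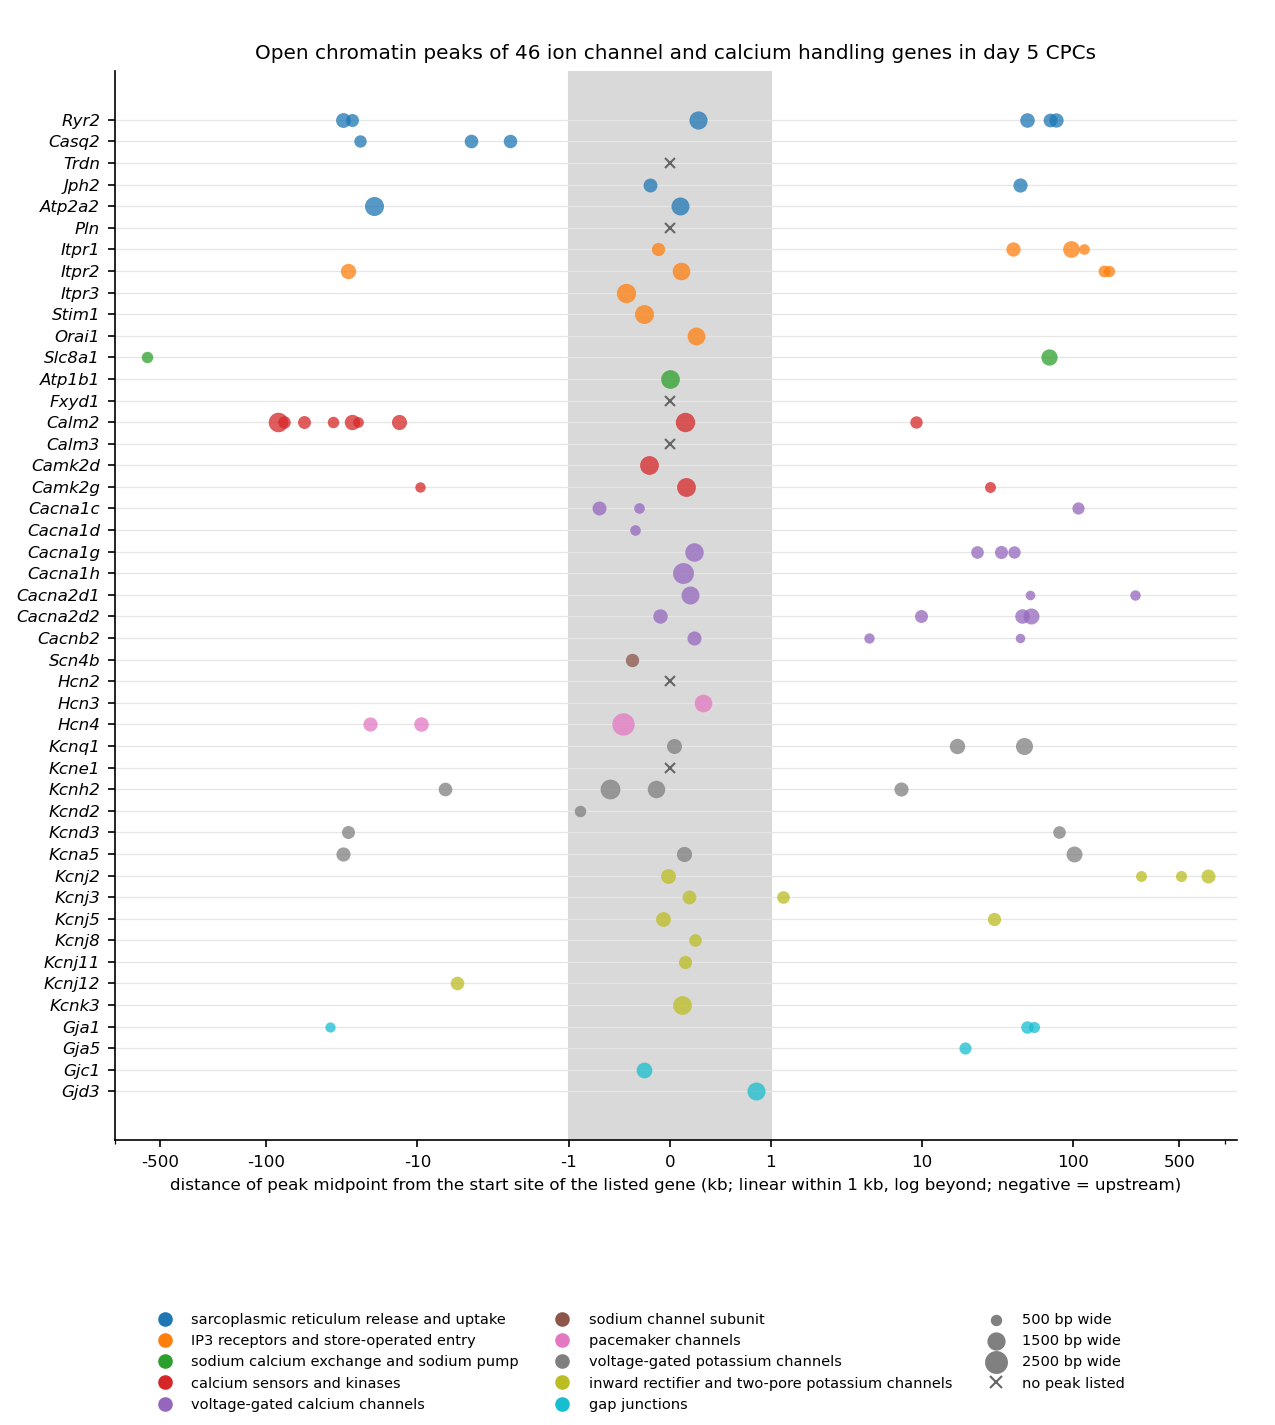
Each point is 1 of the 95 peaks, placed by its distance in kb from the TSS of its gene (linear within 1 kb, shaded, and logarithmic beyond; negative is upstream), with its area scaled to peak width, its colour to the role of the gene and a cross where no peak is listed. A peak stood within 1 kb of the TSS at 34 genes, 7 of the 9 Calm2 peaks lay upstream, and Casq2, Slc8a1, Kcnd3, Kcnj12, Gja1 and Gja5 had peaks only outside the shaded band.

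Of the 6 sarcoplasmic reticulum genes, 2 had 3 or more peaks, 2 had exactly 2 and 2 had none. Ryr2, which encodes the cardiac ryanodine receptor, had 6 peaks. One, 1900 bp wide, had its midpoint 282 bp into the gene, those at 31 and 26.9 kb lay upstream outside coding genes, and those at 49.3, 69.9 and 76.3 kb lay in introns. Open chromatin thus stood on both sides of the Ryr2 TSS over more than 100 kb. The distal peaks had like widths, of 977 to 1276 bp, all narrower than the one at the TSS. Atp2a2, the SERCA gene, had a peak of 1867 bp at 106 bp and an upstream peak at 19.3 kb that was 2099 bp wide, wider than 97.8% of all peaks between 10 and 50 kb. Jph2, for the junctophilin that holds the reticulum close to the surface membrane, had a peak 199 bp upstream of its TSS and an intronic one at 44 kb. Casq2, which encodes the calcium-binding calsequestrin, had no peak at its TSS, but 3 upstream of it, at 2.44, 4.42 and 23.9 kb, with widths of 1051, 1074 and 889 bp.

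Trdn, for triadin, which anchors calsequestrin at the release channel, and Pln, for phospholamban, had none. The nearest peak to the Trdn TSS was 193 kb upstream and listed under Nkain2, and 1 peak inside the gene was listed under D830005E20Rik. The nearest to the Pln TSS was 41.9 kb downstream and listed under Cep85l. Pump and brake thus differed, with open chromatin at the TSS of Atp2a2 and none listed at that of Pln. In the classes defined below, the Atp2a2 promoter is CpG-rich and that of Pln CpG-poor. Of all promoters of these classes 89.4 and 24.8% overlapped a peak, so each gene showed the more common state of its class.

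The following sequences, from mm9 (NCBIM37), are examples chosen after their base composition and motif matches were seen. For a TSS the 200 bases just before the annotated start are given on the strand of the gene, and for a peak the central 200 bases on the plus strand. Capitals mark 4 short motifs on either strand, namely AGATAA for the GATA factors, AAGTG for NK2 homeobox factors such as Nkx2-5, GGAATG for TEAD factors and, for LIM-homeodomain factors, the family of Isl1, TAATTG with its variant that ends in GG. A match is a run of letters and does not show binding. The Ryr2 (chr13:12199213-12199412, minus strand), Atp2a2 (chr5:122952184-122952383, minus strand) and Pln (chr10:53057292-53057491, plus strand) stretches lie upstream of these TSSs, and only the first and second overlap a peak. The Atp2a2 stretch was 79% GC with 35 CpG dinucleotides, the Ryr2 stretch 64% with 11, and the Pln stretch 33% with 1. The Ryr2 (chr13:12122859-12123058) and Casq2 (chr3:101887836-101888035) windows come from the intronic peak at 76.3 kb and the upstream peak at 2.44 kb, and each held 2 GATA matches, 1 TEAD match and 1 LIM-homeodomain match. They are the windows richest in these matches among the Ryr2 and Casq2 peaks, since those of the Ryr2 peaks at 26.9 and 49.3 kb and of the Casq2 peak at 4.42 kb held none of the 4 motifs. The Pln stretch, too, held a GATA, an NK2 and a LIM-homeodomain match without a peak.
Ryr2 start site: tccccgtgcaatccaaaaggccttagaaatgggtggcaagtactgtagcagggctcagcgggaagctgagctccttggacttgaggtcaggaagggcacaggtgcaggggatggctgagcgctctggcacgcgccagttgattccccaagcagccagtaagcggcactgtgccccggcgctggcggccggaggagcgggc
Atp2a2 start site: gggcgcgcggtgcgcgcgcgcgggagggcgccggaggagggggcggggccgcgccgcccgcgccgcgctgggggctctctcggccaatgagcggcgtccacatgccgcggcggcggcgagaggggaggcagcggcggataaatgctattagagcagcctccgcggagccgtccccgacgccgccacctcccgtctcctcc
Pln start site: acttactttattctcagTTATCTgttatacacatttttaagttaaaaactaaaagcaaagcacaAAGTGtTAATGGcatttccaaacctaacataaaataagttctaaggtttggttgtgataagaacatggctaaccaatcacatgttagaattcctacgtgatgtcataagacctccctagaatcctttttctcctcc
Ryr2 intronic peak: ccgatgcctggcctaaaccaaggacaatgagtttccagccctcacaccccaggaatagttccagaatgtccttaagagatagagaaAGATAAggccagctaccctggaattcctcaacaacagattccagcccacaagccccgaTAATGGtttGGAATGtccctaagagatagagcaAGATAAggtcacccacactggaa
Casq2 upstream peak: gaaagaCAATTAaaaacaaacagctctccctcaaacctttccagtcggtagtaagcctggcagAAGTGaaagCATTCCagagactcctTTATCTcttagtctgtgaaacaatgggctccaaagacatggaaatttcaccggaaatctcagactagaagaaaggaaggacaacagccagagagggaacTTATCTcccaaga

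All 5 genes for IP3 receptors, which release stored calcium in many cell types, and for store-operated entry had a peak within 1 kb of the TSS. Of all protein coding genes 50.1% had one. Itpr1 had 4 peaks, of 998 bp at 113 bp upstream of its TSS and of 1179, 1623 and 654 bp in introns at 39.7, 96.9 and 117 kb. Itpr2 had 4 as well, at 110 bp (1791 bp wide), 28.9 kb upstream (1354 bp) and in introns at 159 and 171 kb (808 and 732 bp). Intronic open chromatin therefore reached beyond 100 kb in both genes. Itpr3, Stim1, the calcium sensor of the reticulum, and Orai1, the surface channel it opens, each had 1 broad TSS peak, with widths of 2142, 2077 and 1828 bp and midpoints 430 and 252 bp upstream and 259 bp downstream.

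Of the genes for sodium calcium exchange and the sodium pump, Atp1b1, a subunit of the pump, had 1 peak of 2017 bp centred 6 bp from its TSS. Slc8a1, the cardiac sodium calcium exchanger, had 2 peaks and neither at a TSS. One was listed 610 kb upstream and was 756 bp wide. The other, 1533 bp wide, was listed 68.6 kb downstream of a TSS that lies 88.8 kb before the first coding TSS of the GENCODE annotation, from which it was 20.2 kb upstream, so the side on which it lies depends on the annotation. This peak was 63.2% GC, and its CpG dinucleotides stood at 0.67 of the number its base content predicts, close to the medians of the member peaks at a TSS (62.4% and 0.67). Fxyd1, for phospholemman, a regulator of the pump, had no peak under its symbol. A peak 2.53 kb into the gene was listed under its neighbour Fxyd7.

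Calm2, 1 of the genes that encode the same calmodulin protein, had 9 peaks, the most of the 46 genes. The peak at its TSS, centred at 149 bp, had a width of 2169 bp, and a peak of 881 bp lay at 9.17 kb. The other 7 stood upstream at 13.2, 24.8, 27.2, 36, 56.3, 75.7 and 84.1 kb, outside protein coding genes. They were 665 to 2204 bp wide, and the farthest was wider than 99% of all peaks between 50 and 100 kb. This stretch lies between Calm2 and Epcam, whose TSS was 105 kb from the farthest peak, and the assignment to Calm2 rests on distance alone. Camk2g, for a calmodulin-dependent kinase, had 3 peaks, of 2046 bp at 164 bp, of 623 bp at 9.68 kb upstream and of 691 bp in an intron at 28 kb. Camk2d, the main form in heart muscle, had 1 peak of 2036 bp at 208 bp upstream, and 2 more inside the gene were listed under Ank2. Calm3, another calmodulin gene, had none, the nearest peak being 20.7 kb upstream and listed under Pnmal2. Among these genes of closely related function, the count therefore ran from 0 to 9.

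All 7 genes of voltage-gated calcium channels had a peak within 1 kb of a TSS (50.1% of all protein coding genes). With 19 peaks in all, 5 of them had 3 or more (10.3% of all). Cacna1c, which encodes the pore of the L-type channel that triggers contraction, had peaks at each of a pair of listed start sites 87.9 kb apart. The internal start is not in the GENCODE annotation, whose nearest Cacna1c start lay 87735 bp away. From the first GENCODE coding start, the peak listed at the internal start was 87 kb downstream, in an intron. The peak at the first start was 652 bp wide, 307 bp upstream and inside the neighbouring gene Dcp1b, and the peak at the internal start was 1127 bp wide and 703 bp upstream. The first was narrower than nearly all TSS peaks, of which 1.42% were as narrow. Another peak of 864 bp lay in an intron 107 kb beyond the internal start. A further 4 peaks inside Cacna1c were listed under Ankrd26, 4931430N09Rik and Dcp1b, the last at the Dcp1b TSS.

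Cacna1d, for the L-type channel of pacemaker tissue, had a single narrow peak of 647 bp, 343 bp upstream. The T-type channel gene Cacna1g had 4 peaks, of 1971 bp at 241 bp and of 926, 986 and 885 bp at 23, 33 and 40.3 kb within the gene. Its paralogue Cacna1h had 1 peak, with its midpoint at 135 bp, which at 2519 bp was wider than 95.7% of all TSS peaks. The open chromatin of these T-type genes thus differed in number more than in presence at the TSS. Of the auxiliary subunits, Cacna2d1 had 3 peaks, of 1868 bp at 200 bp and of 535 and 627 bp in introns at 51.4 and 253 kb. Cacna2d2 had 4, of 1199 bp at 99 bp upstream and of 972, 1224 and 1477 bp in introns at 9.78, 45.4 and 52.3 kb, with 3 others in the gene listed under Tmem115. Cacnb2 had 3, of 1139 bp at 241 bp, of 619 bp at 4.44 kb and of 522 bp, the narrowest of all 95, in an intron 44.1 kb beyond a start site 269 kb into the gene. Scn4b, for a small subunit of the sodium channel, had 1 peak of 1025 bp, 371 bp upstream of its listed TSS and within an exon of the gene.

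Hcn4, which encodes the main pacemaker channel of the sinus node, had 3 peaks, all with midpoints upstream of the TSS. The peak at the TSS, 467 bp upstream, was 2883 bp wide, the widest of all 95 and wider than 98% of all TSS peaks. The others were 1216 bp wide at 9.46 kb and 1161 bp wide at 20.6 kb. Hcn3, for a related pacemaker channel, had 1 peak of 1790 bp at 333 bp. Hcn2, for the form also found in ventricle and brain, had none, with the nearest peak 12.1 kb upstream and listed under Bsg.

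The genes of voltage-gated potassium channels carried 13 peaks. Kcnh2, for the channel of the rapid delayed rectifier current, had 4 peaks and open chromatin at both of its start sites, which lie 22 kb apart. The peak at the first was 2268 bp wide and 595 bp upstream, and the peak at the internal start, which gives the shorter form of the channel, was 1766 bp wide and 132 bp upstream. Peaks of 1071 and 1151 bp lay 6.54 kb upstream and 7.21 kb downstream of the internal start, both in introns. Kcnq1, for the slow delayed rectifier, had peaks of 1300 bp at 43 bp and of 1361 and 1676 bp in introns at 17.1 and 47.2 kb. A further peak inside Kcnq1 stood 9 bp from the start of Kcnq1ot1, the antisense transcript of this imprinted locus. Kcne1, the partner of Kcnq1 in that current, had none, and the nearest peak was 40.7 kb upstream and listed under Rcan1.

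Kcna5, for the ultrarapid potassium current, had 3 peaks, of 1328 bp at 142 bp, of 1155 bp at 30.9 kb upstream and of 1461 bp at over 100 kb downstream. The transient outward channel genes differed in where their peaks lay. Kcnd2 had 1 peak of 763 bp, 890 bp upstream, and Kcnd3 had none at a TSS but peaks of 976 bp at 28.7 kb upstream and of 921 bp in an intron at 80.2 kb.

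The next sequences show the pair of Kcnh2 start sites, each overlapped by a peak, and distal windows of Hcn4, Cacna1c and Calm2, again chosen for their matches. The stretch before the first Kcnh2 start (chr5:23857423-23857622, minus strand) was 81.5% GC with 34 CpG, and that before the internal start (chr5:23835410-23835609, minus strand) 75.5% GC with 10 CpG, and neither held any of the 4 motifs. The Hcn4 window (chr9:58650621-58650820), from the peak at 20.6 kb, held 3 NK2 matches, 1 GATA and 1 TEAD match. The Cacna1c window (chr6:118951607-118951806), from the intronic peak, held 1 match of each of the 4 motifs. The Calm2 window (chr17:87873326-87873525), from the upstream peak of 1372 bp, held 2 NK2 matches and 1 TEAD match.
Kcnh2 first start site: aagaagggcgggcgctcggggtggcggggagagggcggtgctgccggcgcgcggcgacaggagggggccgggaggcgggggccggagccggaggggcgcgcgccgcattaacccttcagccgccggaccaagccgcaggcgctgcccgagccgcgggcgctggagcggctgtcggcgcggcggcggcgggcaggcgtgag
Kcnh2 internal start site: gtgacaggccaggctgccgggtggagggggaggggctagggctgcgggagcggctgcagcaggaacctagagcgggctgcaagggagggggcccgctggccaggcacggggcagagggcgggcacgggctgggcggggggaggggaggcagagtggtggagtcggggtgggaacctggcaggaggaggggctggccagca
Hcn4 upstream peak: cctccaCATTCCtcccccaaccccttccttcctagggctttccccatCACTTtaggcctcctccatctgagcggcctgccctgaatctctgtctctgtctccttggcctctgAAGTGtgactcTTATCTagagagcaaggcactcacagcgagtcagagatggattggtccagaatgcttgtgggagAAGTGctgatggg
Cacna1c intronic peak: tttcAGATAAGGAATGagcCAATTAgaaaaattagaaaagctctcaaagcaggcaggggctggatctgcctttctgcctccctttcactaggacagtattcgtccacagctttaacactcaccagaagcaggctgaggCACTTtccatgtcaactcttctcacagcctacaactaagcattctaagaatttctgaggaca
Calm2 upstream peak: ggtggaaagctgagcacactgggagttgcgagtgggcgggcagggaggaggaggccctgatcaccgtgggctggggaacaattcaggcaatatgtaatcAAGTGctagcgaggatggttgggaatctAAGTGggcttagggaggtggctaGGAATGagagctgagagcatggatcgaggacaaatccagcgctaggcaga

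All 7 genes of inward rectifier and two-pore potassium channels had a peak (62.5% of all protein coding genes), 6 of them at the TSS (50.1% of all). Kcnj2, the main gene of the resting potassium current, had 4. One, 1270 bp wide, was centred 13 bp from the TSS, and the others lay 282, 512 and 778 kb downstream with widths of 689, 716 and 1137 bp, in the long gene-poor stretch between Kcnj2 and Sox9. They were the farthest downstream of all 95 peaks, and their listing under Kcnj2 again rests on distance. Kcnj3 and Kcnj5, which form the channel through which acetylcholine slows the heart, each had 2 peaks. Those of Kcnj3, at 186 bp and 1.21 kb, were 1096 and 930 bp wide and only 11 bases apart. Those of Kcnj5 were 1260 bp wide at 71 bp upstream and 1015 bp wide at 30 kb.

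Kcnj8 and Kcnj11, the pore genes of ATP-sensitive channels, each had 1 TSS peak, with widths of 915 and 996 bp and midpoints at 253 and 155 bp. Kcnk3, for the two-pore channel TASK-1, had 1 of 2027 bp at 122 bp. Kcnj12, another gene of the resting current, had a single peak of 1065 bp, 5.47 kb upstream of its TSS, and none at the TSS.

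Of the gap junction genes, Gja1 and Gja5, for connexins 43 and 40 of working and conducting muscle, had no peak within 1 kb of the listed TSS. Gja1 had 3 distal peaks, of 602 bp at 38.1 kb upstream and of 901 and 711 bp at 49.3 and 54.6 kb downstream. Gja5 had 1 of 853 bp, 19.2 kb downstream and within the gene. Gjc1, for connexin 45 of the early heart, had a TSS peak of 1432 bp, 260 bp upstream, and Gjd3, for another connexin, had 1 of 1879 bp at 857 bp. The stretch before the Gja1 TSS (chr10:56096906-56097105, plus strand), which overlaps no peak, was 51.5% GC with 5 CpG. It is shown with the centre of the peak at 54.6 kb (chr10:56151580-56151779) and with that of the only Kcnj12 peak (chr11:60830495-60830694), where the MEF2 match, the only one in the central 200 bases of any of the 95 peaks, is in capitals as well.
Gja1 start site: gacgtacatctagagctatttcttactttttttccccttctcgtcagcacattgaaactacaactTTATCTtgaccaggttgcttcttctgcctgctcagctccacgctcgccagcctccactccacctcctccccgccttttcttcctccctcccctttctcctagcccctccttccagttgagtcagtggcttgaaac
Gja1 downstream peak: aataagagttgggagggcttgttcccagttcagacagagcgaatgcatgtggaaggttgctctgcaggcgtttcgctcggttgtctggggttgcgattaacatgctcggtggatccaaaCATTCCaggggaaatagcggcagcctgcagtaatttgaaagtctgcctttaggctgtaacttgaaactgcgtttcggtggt
Kcnj12 upstream peak: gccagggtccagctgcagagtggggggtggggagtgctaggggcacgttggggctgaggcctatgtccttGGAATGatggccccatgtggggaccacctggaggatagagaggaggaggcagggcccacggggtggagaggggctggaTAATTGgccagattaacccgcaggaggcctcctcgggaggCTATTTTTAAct

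Across the 46 genes, 36 of the 95 peaks (37.9%, 95% Wilson confidence interval 28.8 to 47.9%) lay within 1 kb of a TSS, against 44.9% of all peaks. Beyond 10 kb lay 48 (50.5%), against 41.4%. Of the 59 peaks farther than 1 kb, 36 (61%, 48.3 to 72.4%) were downstream of the TSS, against 55.8% of all such peaks, an interval that holds the value for all peaks. By position in the annotation, 51 of the 95 lay in the gene itself, with 31 midpoints in introns and 20 in exons, 42 lay outside protein coding genes and 2 inside another one. Intervals cover counting error over peaks of this list, and peaks of the same gene are not independent.

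The TSS peaks of the 46 genes had a median width of 1778 bp, against 1326 bp for all peaks within 1 kb. They were also richer in GC, with a median of 62.4% against 58.6%. The part of base content in the width difference was not tested. Of the 36, 19 were wider than 1500 bp. The share of all TSS peaks above this limit is not given. Such widths were common there too, since the upper quartile of all TSS peaks stood at 1691 bp. At 10 to 50 kb the medians were 1015 and 912 bp, at 50 to 100 kb 1095 and 873 bp, and beyond 100 kb 744 and 805 bp. Over all distances the median was 1137 bp (95% confidence interval 1015 to 1223 bp), against 1081 bp.

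**Figure D2:**
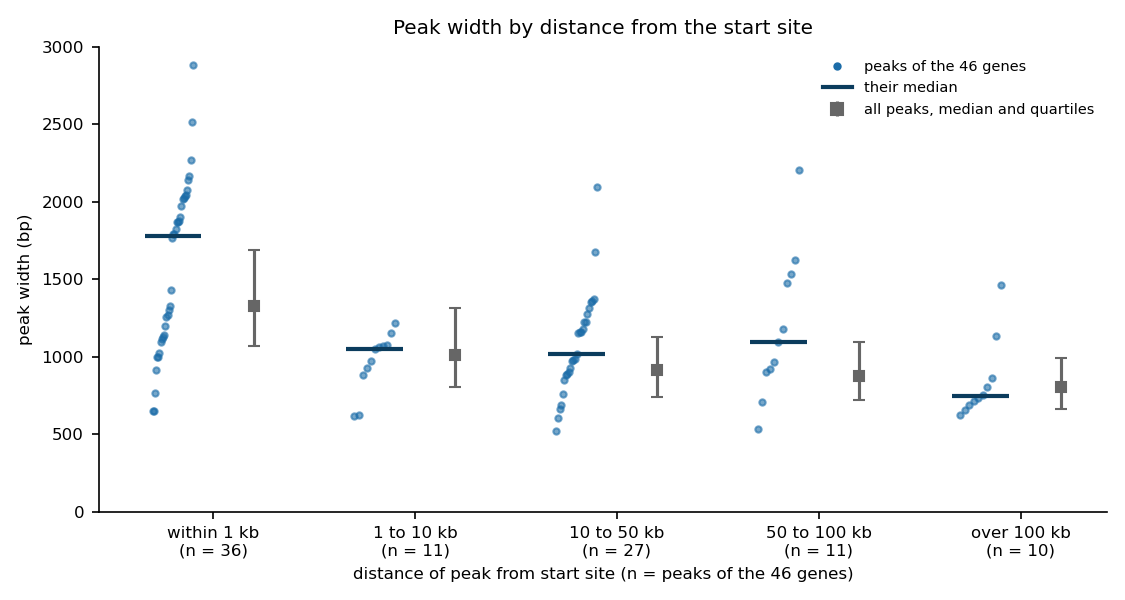
Peak width in bp for the 95 peaks of the 46 genes (blue points, with a bar at the median) by distance class, beside the median and quartiles of all peaks (grey squares and error bars). The blue points within 1 kb reach from 647 to 2883 bp around a median of 1778 bp, and the medians of the farther classes lie between 744 and 1095 bp.

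Base composition around the TSS divided the genes further. A promoter was taken as 500 bp on either side of the first coding TSS of GENCODE, and counted as CpG-rich if it was at least 50% GC and held at least 0.6 of the CpG dinucleotides predicted from its base content. Of 31 CpG-rich promoters, 27 (87.1%) overlapped a peak, compared with 89.4% of all such promoters, and the 4 without were those of Calm3, Hcn2, Kcnd3 and Kcnj12. This class held all 5 genes for IP3 receptors and store-operated entry, and the voltage-gated calcium channel genes other than Cacna1c and Cacna1d. A TSS peak is usual in this class, so its presence at all of them says little. Of 15 CpG-poor promoters, 8 (53.3%) overlapped a peak, compared with 24.8% of all. These were the promoters of Jph2, Cacna1c, Cacna1d, Kcna5, Kcnj2, Kcnj3, Kcnj5 and Kcnj11, the last just under the ratio limit at 0.58. The 7 without were those of Casq2, Trdn, Pln, Slc8a1, Fxyd1, Kcne1 and Gja1. For Gja5 this rule takes a start 128 kb before the listed TSS, which coincides with that of Gpr89 and its peak, so that its count as a CpG-rich promoter with a peak says nothing of the Gja5 TSS proper.

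**Figure D3:**
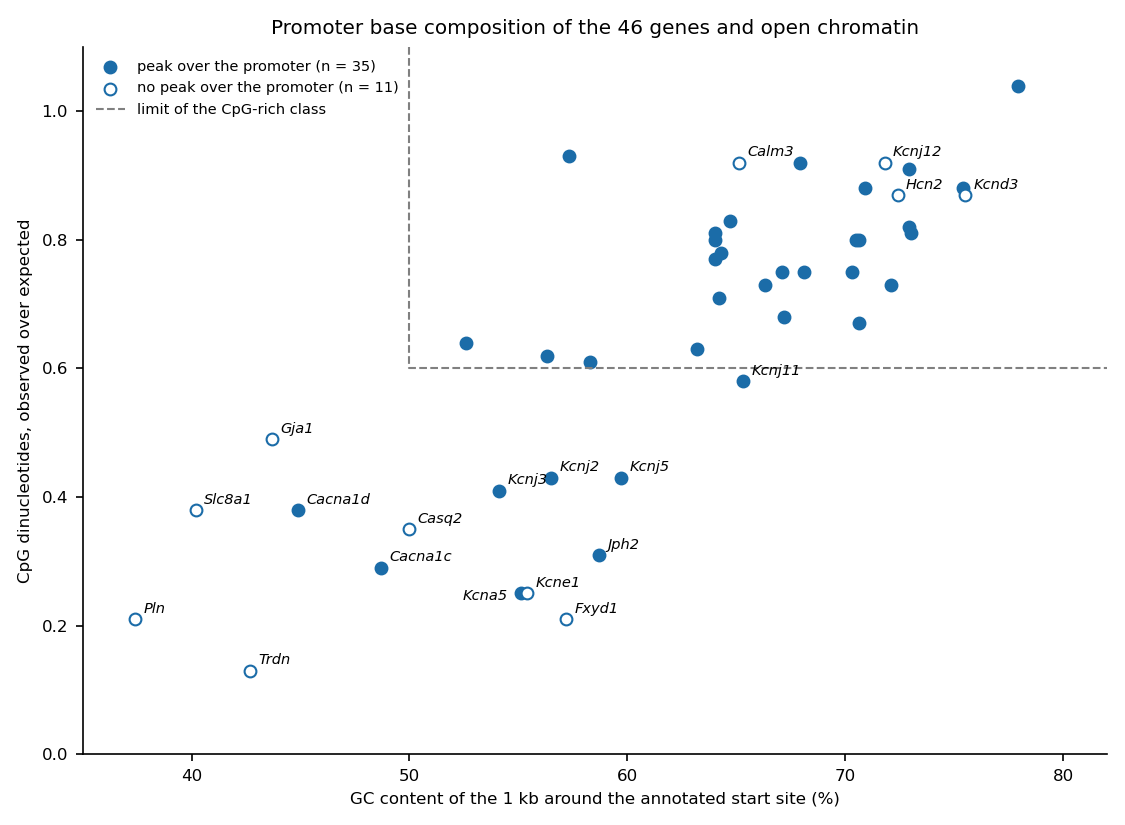
GC content in % of the 1 kb around the first annotated TSS of each of the 46 genes against its observed over expected CpG ratio, with filled points where a peak overlapped the promoter and open points where none did, and dashed lines at the limits of the CpG-rich class. Open points lie at both ends, with 4 of 31 in the CpG-rich class and 7 of 15 below it.

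Short motifs were counted in the central 200 bases of each peak on both strands. Beyond 1 kb of the TSS, AGATAA of the GATA factors was present in 14 of 59 peaks (23.7%, Wilson interval 14.7 to 36%), against 10.5% of 14460 peaks in the whole list. GGAATG of TEAD factors was present in 16 (27.1%, 17.4 to 39.6%) against 16.1%, and the LIM-homeodomain letters in 11 (18.6%, 10.7 to 30.4%) against 8.79%. The lower bounds of these 3 intervals lay above the share of all peaks. The intervals of the other motifs held the share of all peaks, with AAGTG of NK2 factors in 37.3% against 32.6%, AGGTGT of T-box factors in 13.6% against 10.3%, and the E-box CANNTG in 69.5% against 62.8%. The core of the CTCF motif had no match in the 59 peaks (Wilson interval 0 to 6.11%), against 3.64% of all. At the TSS, the central 400 bases held AGATAA in 5 of 36 member peaks (13.9%, 6.08 to 28.7%), against 4.55% of all. The central 200 bases held it in 1 of 36 (2.78%), against 2.06% of all. The 15 peaks with AGATAA at any distance belonged to 13 genes, namely Ryr2, Casq2, Slc8a1, Cacna1c, Cacna1d, Cacna2d1, Cacna2d2, Cacnb2, Hcn4, Kcnh2, Kcnd3, Kcna5 and Kcnj5. Matches were counted as letters, and binding was not measured.

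**Figure D4:**
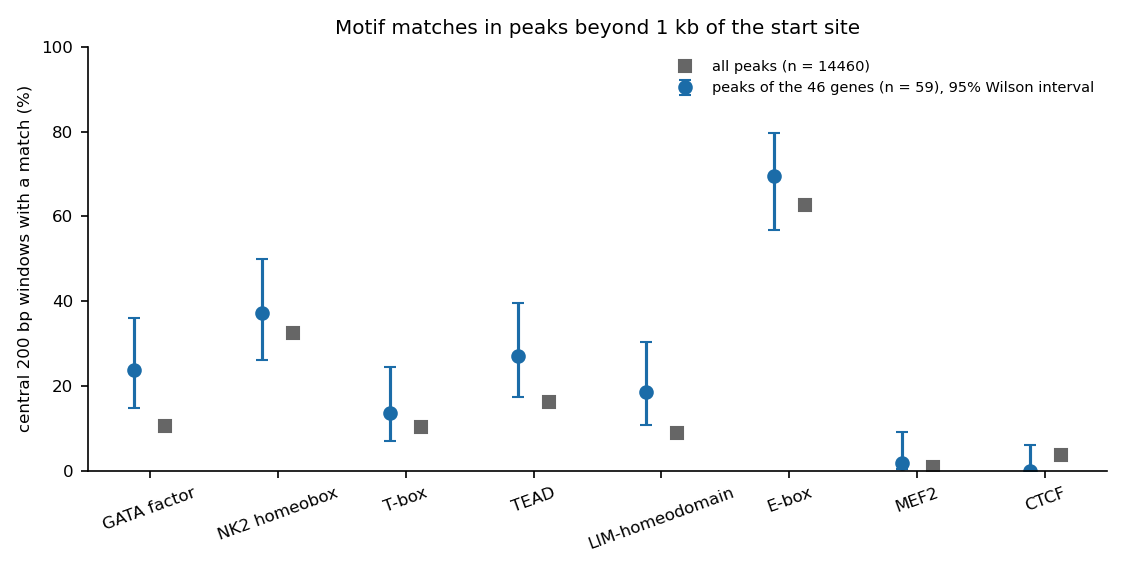
Share in % of the central 200 bp windows of peaks beyond 1 kb of the TSS that hold each motif, for the 59 peaks of the 46 genes (blue points with 95% Wilson intervals) and for 14460 peaks of the whole list (grey squares). The blue intervals of the GATA, TEAD and LIM-homeodomain motifs lie above the grey squares, and those of the other motifs include them.

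The symbol in the list does not capture all open chromatin in these genes. Inside the bodies of the 46 genes lay 74 peaks, of which 23, in 14 genes, were listed under another gene. The same counts were not made over all protein coding genes, so whether these are unusual is not known. Only 4 of the 23 were within 1 kb of the start of the gene they were listed under, namely Dcp1b in Cacna1c, Dcp1a in Cacna1d, Kcnq1ot1 in Kcnq1 and Gpr89 in the annotated span of Gja5. Of Ryr2, 1 more intronic peak was listed under Zp4-ps, and of Itpr1 2 more under Mir7661.

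Related genes were set beside these 46. Of 50 other genes of cardiac excitability and calcium, 42 (84%) had a peak, 64% at the TSS and 34% a distal one, and 14% had 3 or more. Ank2, which anchors channels and pumps, had 9. Of 79 paralogues known mostly from other tissues, 58 (73.4%) had a peak, 48.1% at the TSS, 39.2% a distal one and 19% 3 or more, and Cacna1a had 7. Of 30 genes of the sarcomere and intercalated disc, 20 (66.7%) had a peak, 36.7% at the TSS and 43.3% a distal one, and 26.7% had 3 or more. Of the 12 progenitor markers, 11 (91.7%) had a peak, 66.7% at the TSS, 66.7% a distal one and 66.7% 3 or more, and their median was 3.5 peaks per gene against 1.5 in the 46 genes. The markers thus stood above the 46 genes in every share but that of a TSS peak. No test was made between the lists, which were chosen with results known.

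**Figure D5:**
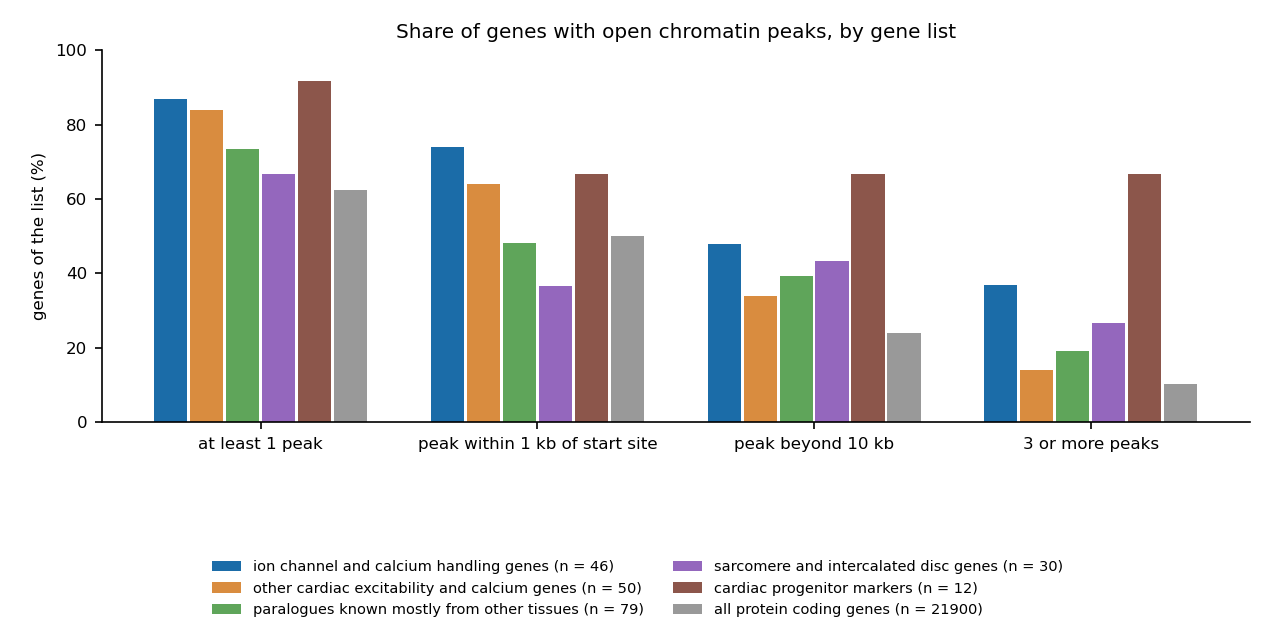
Share in % of the genes of each list with at least 1 peak, a peak within 1 kb of the TSS, a peak beyond 10 kb and 3 or more peaks, for the 46 ion channel and calcium handling genes, 4 other lists and 21900 protein coding genes. The bars of the 46 genes stand at 87, 73.9, 47.8 and 37%, above those of all protein coding genes at 62.5, 50.1, 24 and 10.3%, and those of the progenitor markers stand higher still except at the TSS.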

How the data were processed

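The authors mapped ATAC-Seq reads of 2 samples of day 5 CPCs to mm9 with Bowtie2, removed duplicates with Picard 1.136, called peaks with MACS and kept those shared by both samples (bedtools 2.15, overlap of at least 1 bp), per the study's methods and the submitters' processing notes. No correction for the Tn5 cut position is described apart from a fixed shift at peak calling. A peak carries the coordinates of 1 sample, so that its width also depends on the depth of that sample. The deposited values are positions in bp, a signed distance from the nearest TSS to the peak midpoint and the gene symbol.

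The 26429 lines held 26232 distinct intervals, each counted once, and no member peak stood on more than 1 line. Positions are 1-based. Gene models came from GENCODE vM1 and sequence from NCBIM37, which is mm9, and all 21 chromosomes ended within its lengths. For 68 of the 95 peaks the implied TSS was an annotated one within 1 bp, and for 5 genes distances were measured from more than 1 TSS. All genes means 21900 protein coding genes of a RefSeq table of another build, used for names only, except for gene lengths and promoters, which rest on GENCODE genes. With 1 group and 1 list, counts, medians and Wilson intervals were computed and no test was run. Counting and motif search were tested on simulated data (Python 3.11.15, pandas 2.3.3, SciPy 1.17.1).

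The 46 genes and the comparison lists were chosen with earlier results of these data known. All 46 genes are named, and all peaks are given for those with 3 or more. Classes of gene length, neighbouring genes and the sequences shown were chosen after the values were seen. Alternatives were other distance limits, peak widths, motif windows, CpG limits and counting of lines, and peaks by gene body in place of symbol.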

Additional observations from a re-analysis of the deposited data

How the results depend on the processing

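Of 60 combinations of a result and an alternative, 49 stayed within 1.5 times the count or within the interval of the main value, and 11 moved. For motifs the main value was the difference over all distances, whereas the shares given above are mostly those beyond 1 kb. Keeping only peaks wider than the median of all peaks, 1081 bp, moved the most results. The share of member peaks within 1 kb of a TSS then rose to 55.8% and their median width to 1446 bp, genes with 3 or more peaks fell to 7 and genes with a distal peak to 12, peaks inside the 46 gene bodies to 43 and paralogues with a peak to 38. Genes with any peak fell from 40 to 30 under the same width limit. With distal meaning beyond 50 kb, 12 genes had such a peak. Shares of all protein coding genes are not given for these alternatives, so these counts cannot be set against all genes. With CpG-rich promoters taken at a ratio of at least 0.75, 16 of 20 CpG-rich and 19 of 26 CpG-poor promoters of the 46 genes overlapped a peak. Within the 46 genes the classes then differed less, and the share of all promoters at this limit is not given. The difference in CTCF share between member peaks and all peaks was -2.18 percentage points over all distances and -3.39 in the central 400 bp. It was -3.64 beyond 1 kb of a TSS, the setting of the shares given above. Over all distances the NK2 difference was 1.78 points in 200 bp and -4.44 in 400 bp, and beyond 1 kb it was 4.64 in 200 bp, so it has no settled direction. Peaks of at least 500 bp, and every line counted, moved none of the results they were applied to. For the 95 member peaks neither could, since the narrowest was 522 bp and none stood on more than 1 line. These fixed outcomes are among the 49 and say nothing of how firm the results are.

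No paired analysis was possible because the single list of 1 group holds no value for either sample, and neither sample was left out for the same reason. Depth is unknown, and a gene without a peak was not shown to be closed.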
